A study of Mus musculus with 12 samples.

Results

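The genes described here are 8 mouse genes of MHC class II antigen presentation and T cell costimulation: Cd74, H2-Aa, H2-Ab1, H2-Eb1, H2-DMa, H2-DMb1, Cd80 and Cd40. They were chosen by name, and each of the 8 names was found, on 1 row each, among the 27676 gene names of the normalized table. The cells were PUER cells, mouse myeloid progenitors kept as a line, with a fusion of the transcription factor PU.1 with an estrogen receptor domain, which 4-hydroxytamoxifen (4-OHT) activates. The groups were cells infected with a retrovirus for β-catenin-S33Y and given 10 nM 4-OHT for 24 h, cells infected with the MIGR1 vector without insert (control) and given 4-OHT for 24 h, β-catenin-S33Y cells at 0 h, and control cells at 0 h, with 3 arrays in each of these 4 groups. Cells of all groups were sorted for green fluorescent protein 5 days after infection, and all carry the PU.1 fusion and a retroviral vector. S33Y is an amino acid change that makes β-catenin resistant to degradation. The model is a single cell line, and a 24 h sample without 4-OHT was not analysed here, so time in culture and 4-OHT cannot be told apart. The labels letter the samples A, B and C without saying whether these were separate cultures, so p-values rest on a spread between samples that may be technical only.

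MHC class II molecules are pairs of an α and a β chain that show peptides from endosomes to CD4+ T cells. The invariant chain, CD74, guides new class II molecules to endosomes and fills their groove, endosomal proteases cut it down, and the DM heterodimer exchanges its last fragment for a peptide. The class II genes, Cd74 and the DM genes share a promoter module of X and Y boxes that is driven by the coactivator CIITA. CD80 binds CD28 and CTLA-4 on T cells, and CD40 receives the CD40 ligand from them. Macrophages raise much of this machinery upon interferon-γ, and dendritic cells and B cells carry it without such a stimulus.

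RefSeq promoter windows (build GRCm38.p6) were at hand for 5 of the 8 genes, each from 250 bases before to 50 bases after a transcription start. They are shown because the class II module lies in this stretch. Capitals mark the Y box core, GATTGG on either strand, which NF-Y binds. Positions are H2-Aa at chr17:34287774-34288073 (minus strand), H2-Eb1 at chr17:34305617-34305916 (plus strand), H2-DMb1 at chr17:34152941-34153240 (plus strand), the second start of H2-DMa at chr17:34125268-34125567 (plus strand) and Cd80 at chr16:38458683-38458982 (plus strand).
H2-Aa: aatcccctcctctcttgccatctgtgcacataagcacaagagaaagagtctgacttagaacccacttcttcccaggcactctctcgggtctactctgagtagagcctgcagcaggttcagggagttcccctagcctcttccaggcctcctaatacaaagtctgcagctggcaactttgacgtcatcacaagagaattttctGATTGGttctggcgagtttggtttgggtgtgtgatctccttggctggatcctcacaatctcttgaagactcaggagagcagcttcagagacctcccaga
H2-Eb1: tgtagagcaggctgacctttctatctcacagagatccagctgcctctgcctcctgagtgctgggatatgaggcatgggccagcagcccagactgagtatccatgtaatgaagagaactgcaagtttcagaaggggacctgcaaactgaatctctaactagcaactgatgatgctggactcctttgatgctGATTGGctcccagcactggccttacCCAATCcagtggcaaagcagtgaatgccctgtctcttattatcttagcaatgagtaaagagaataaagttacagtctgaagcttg
H2-DMb1: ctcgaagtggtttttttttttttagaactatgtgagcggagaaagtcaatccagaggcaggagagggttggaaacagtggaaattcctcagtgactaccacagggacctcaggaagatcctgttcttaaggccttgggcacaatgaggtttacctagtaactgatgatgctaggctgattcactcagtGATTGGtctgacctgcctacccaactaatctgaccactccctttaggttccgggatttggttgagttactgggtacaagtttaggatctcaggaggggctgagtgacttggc
H2-DMa: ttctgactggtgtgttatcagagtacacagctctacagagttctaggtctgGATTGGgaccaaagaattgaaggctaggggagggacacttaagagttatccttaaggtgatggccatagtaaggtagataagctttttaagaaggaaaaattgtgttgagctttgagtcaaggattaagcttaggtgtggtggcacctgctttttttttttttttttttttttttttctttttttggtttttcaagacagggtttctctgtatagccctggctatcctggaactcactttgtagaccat
Cd80: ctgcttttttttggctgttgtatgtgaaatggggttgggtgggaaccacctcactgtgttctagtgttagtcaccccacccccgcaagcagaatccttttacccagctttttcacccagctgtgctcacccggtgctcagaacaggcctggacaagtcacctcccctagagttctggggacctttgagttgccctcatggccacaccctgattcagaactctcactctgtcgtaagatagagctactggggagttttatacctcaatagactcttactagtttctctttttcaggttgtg

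The Y box core lay 49 bases before the start of H2-Aa, 62 before that of H2-DMb1, and 60 and, on the other strand, 35 before that of H2-Eb1. In H2-DMa it lay 199 bases before the second start, and the window of the first start held none. The Cd80 window held none. The core was present on either strand in 16.11% of all 32851 promoter windows of the same length. The letters GAGGAA, the core of a PU.1 site, were searched on both strands and occurred in the H2-DMb1 window alone among the windows of these genes, 167 bases before the start on the other strand. They occurred in 28.28% of all windows. The letters CTTTGAT, the core of a TCF/LEF site, the kind of site through which β-catenin acts, occurred in the H2-Eb1 window alone among them, 70 bases before the start, and in 3.729% of all windows. None of these matches overlapped another. A match describes letters and does not show binding. Cd74 sequence is not shown, and H2-Ab1 and Cd40 are described by their values.

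**Figure D1:**
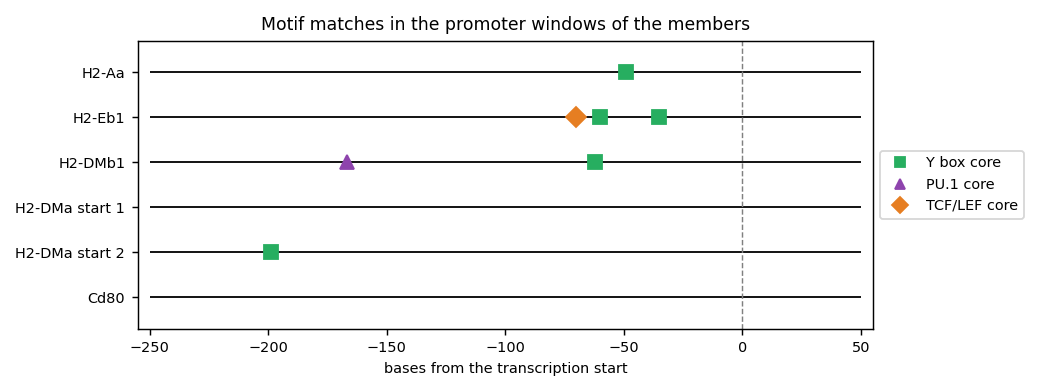
Motif matches in the promoter windows of H2-Aa, H2-Eb1, H2-DMb1, H2-DMa (both starts) and Cd80. The x axis is the distance from the transcription start in bases, each horizontal line is 1 window, and symbols are Y box, PU.1 and TCF/LEF cores on either strand; the Y boxes of H2-Aa, H2-Eb1 and H2-DMb1 lie 35 to 62 bases before the start.

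Signals are log2 values as the authors normalized them. Background was taken, on each array, as the mode of its log2 values plus 3 standard deviations of the values below the mode, which gave bounds of 7.39 to 7.62. All 8 genes passed the filter on dim genes, which kept genes that reached the 30th percentile on 3 or more arrays, so passing it does not mean lying above background. On this scale H2-DMb1 lay above the bound on 12 of 12 arrays, H2-DMa on 9, Cd74 on 8 and Cd80 on 6, while H2-Aa, H2-Ab1, H2-Eb1 and Cd40 lay below it on all 12. Where an array of the dimmer group lay below its bound, the fold is given as "at least", computed with the bound in place of such values. The limma fit over all 22461 genes tested gave the changes, standard errors (SE) and Benjamini-Hochberg adjusted p-values, and a gene was called at an adjusted p below 0.05.

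Median scanned intensity per array was 133.5 to 208, and the number of arrays, not a read depth, limits the precision. Correlations between arrays over all genes were 0.993 to 0.995 within groups and 0.979 to 0.991 between groups. The probe named Ctnnb1 averaged 13.87 ± 0.10 in β-catenin cells and 13.86 ± 0.04 in control cells at 0 h (log2, SD, n = 3 each; adjusted p = 0.949). The sources used here do not give its place in the transcript, and it therefore does not check the labels of the inserted β-catenin.

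Cd74, the invariant chain, rose with 4-OHT in control cells and showed no call with 4-OHT in β-catenin cells. The log2 signal was 7.66, 7.42 and 7.55 in β-catenin cells at 24 h, 8.81, 8.71 and 8.97 in control cells at 24 h, 7.34, 7.50 and 7.55 in β-catenin cells at 0 h, and 7.23, 7.48 and 7.02 in control cells at 0 h. The 3 control arrays at 24 h stood above the other 9, and those 9 lay around the background bound, with arrays of neighbouring groups overlapping. In control cells the 24 h arrays were at least 2.45-fold above the 0 h arrays (log2 change 1.59 ± 0.13, SE; adjusted p = 2e-06). In β-catenin cells the log2 change was 0.08 ± 0.13 (adjusted p = 0.784), with a 95% interval of -0.20 to 0.35. The difference between these responses was itself called, at -1.51 ± 0.18 (adjusted p = 0.000438). At 24 h Cd74 was at least 2.36-fold lower in β-catenin cells than in control cells (-1.29 ± 0.13, adjusted p = 3.07e-05), and at 0 h the difference of 0.22 ± 0.13 was not called (adjusted p = 0.317). In a bulk sample, fewer cells that express a gene and less RNA per cell cannot be told apart.

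The α and β chains of the peptide-presenting molecules stayed below the background bound in every group. H2-Aa, the α chain of I-A, ranged from 6.09 to 6.70 in β-catenin cells at 24 h, from 6.31 to 6.61 in control cells at 24 h, from 6.43 to 6.61 in β-catenin cells at 0 h, and from 6.26 to 6.72 in control cells at 0 h. H2-Ab1, its β chain, ranged from 6.49 to 7.003 in β-catenin cells at 24 h, from 6.81 to 6.99 in control cells at 24 h, from 6.58 to 6.77 in β-catenin cells at 0 h, and from 6.39 to 6.97 in control cells at 0 h. H2-Eb1, the β chain of I-E, ranged from 6.87 to 7.15 in β-catenin cells at 24 h, from 6.81 to 6.98 in control cells at 24 h, from 6.32 to 7.01 in β-catenin cells at 0 h, and from 6.78 to 7.05 in control cells at 0 h. Between the vectors at each time and between the times in each vector, the arrays of both groups overlapped for each of these genes, and none was called in any of the 5 comparisons. In control cells the log2 change with 4-OHT had a 95% interval of -0.47 to 0.24 for H2-Aa, -0.18 to 0.52 for H2-Ab1 and -0.38 to 0.34 for H2-Eb1, and intervals so near background cover the signal and not the transcript. H2-Eb1 had a log2 change of 0.41 ± 0.16 with 4-OHT in β-catenin cells (adjusted p = 0.131) and differed by -0.36 ± 0.16 between the vectors at 0 h (adjusted p = 0.209), and both passed the threshold without β-catenin 0 h array B (0.63, adjusted p = 0.00797, and -0.58, adjusted p = 0.017).

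Of the class II chains among the 8 genes, those of DM, which loads peptides, reached above background. H2-DMa, the α chain, was at 7.83, 7.75 and 7.52 in β-catenin cells at 24 h, 7.91, 7.85 and 7.87 in control cells at 24 h, 7.52, 7.50 and 7.47 in β-catenin cells at 0 h, and 6.75, 7.28 and 7.04 in control cells at 0 h. The 3 control arrays at 0 h were below every other array and below the bound. H2-DMa rose at least 1.28-fold with 4-OHT in control cells (0.86 ± 0.13, adjusted p = 0.000335). In β-catenin cells its change of 0.20 ± 0.13 was not called (adjusted p = 0.353), and the difference between the responses, -0.65 ± 0.18, had an adjusted p of 0.0503. At 0 h H2-DMa was higher in β-catenin cells than in control cells by 0.48 ± 0.13 (adjusted p = 0.0324), a call that 8 of 22 alternative settings lost, among them each setting that left out control 0 h array A or C or any β-catenin 0 h array. No fold is given at 0 h, because the control arrays lay below their bounds and the mean of β-catenin cells did not exceed the mean of those bounds. At 24 h the groups did not overlap but the difference of -0.18 ± 0.13 was not called (adjusted p = 0.401).

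H2-DMb1, the β chain of DM, was bright on all arrays and changed little. It was at 13.13, 13.38 and 13.19 in β-catenin cells at 24 h, 13.43, 13.43 and 13.23 in control cells at 24 h, 12.87, 12.84 and 12.89 in β-catenin cells at 0 h, and 13.17, 13.27 and 13.21 in control cells at 0 h. The β-catenin arrays at 0 h were below the other 9, which overlapped between groups. H2-DMb1 was 1.27-fold lower in β-catenin cells than in control cells at 0 h (-0.35 ± 0.09, adjusted p = 0.0327) and rose 1.29-fold with 4-OHT in β-catenin cells (0.36 ± 0.09, adjusted p = 0.0212). Leaving out any 1 of the 6 arrays at 0 h ended the first of these calls, and leaving out any β-catenin 0 h array or β-catenin 24 h array B ended the second. In control cells the change was 0.15 ± 0.09 (adjusted p = 0.316), at 24 h the vectors differed by -0.13 ± 0.09 (adjusted p = 0.384), and the responses differed by 0.22 ± 0.13 (adjusted p = 0.403). H2-DMb2, a near copy of H2-DMb1 with its own probe, was lower in β-catenin cells at 0 h (-0.69 ± 0.11, adjusted p = 0.00188) and rose with 4-OHT there (0.63 ± 0.11, adjusted p = 0.00268). Which transcript each of these probes reads is uncertain.

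Cd80 rose with 4-OHT in cells of both vectors, and less with β-catenin. It was at 8.59, 8.64 and 8.58 in β-catenin cells at 24 h, 9.54, 9.70 and 9.82 in control cells at 24 h, 7.08, 7.02 and 7.05 in β-catenin cells at 0 h, and 7.002, 6.54 and 6.67 in control cells at 0 h. The 4 groups did not overlap, and both 0 h groups lay below the bound. The rise was at least 2.20-fold in β-catenin cells (1.55 ± 0.12, adjusted p = 3.53e-06) and at least 4.51-fold in control cells (2.95 ± 0.12, adjusted p = 4.92e-09). The responses differed by -1.40 ± 0.17 (adjusted p = 0.000431), and at 24 h, where all 6 arrays were above the bound, Cd80 was 2.12-fold lower in β-catenin cells than in control cells (-1.08 ± 0.12, adjusted p = 6.25e-05). At 0 h the difference of 0.31 ± 0.12, between groups below background, was not called (adjusted p = 0.12).

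Cd40 stayed below the bound. It ranged from 6.18 to 6.65 in β-catenin cells at 24 h, from 6.28 to 6.63 in control cells at 24 h, from 6.45 to 6.66 in β-catenin cells at 0 h, and from 6.70 to 6.77 in control cells at 0 h. The control 0 h arrays lay above those of β-catenin cells at 0 h and of control cells at 24 h without overlap, but the changes, -0.16 ± 0.13 at 0 h and -0.27 ± 0.13 with 4-OHT in control cells, were not called (adjusted p = 0.531 and 0.202). Its probe had 10 spots per array, whose scanned intensities ranged from 67 to 306.5, the highest being a spot on control 24 h array A. The median of its 10 spots lay below the median of all spots on each array.

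**Figure D2:**
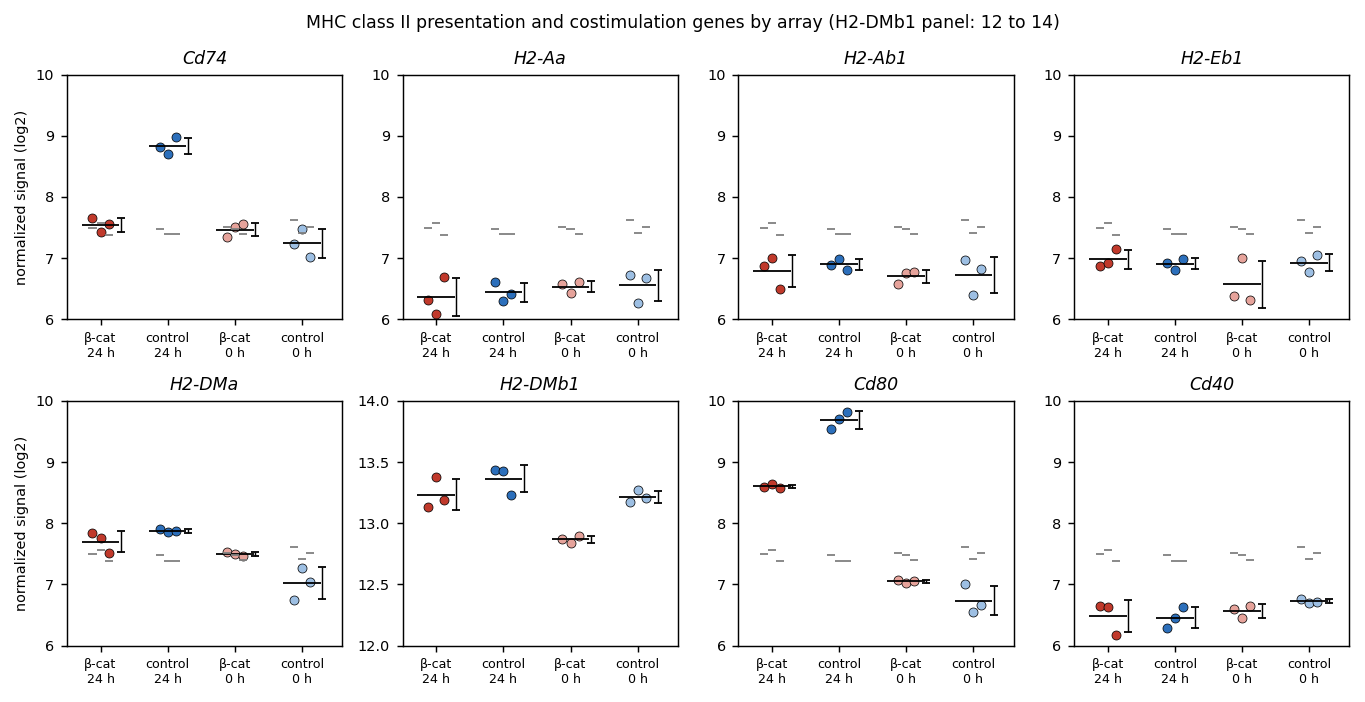
Normalized log2 signal (y axis) of the 8 genes on 12 arrays in 4 groups (x axis). Points are arrays A, B and C, black lines group means, bars the SD, and grey ticks the background bound of each array; Cd74 and Cd80 are highest in control cells at 24 h, H2-Aa, H2-Ab1, H2-Eb1 and Cd40 lie below the ticks, and the H2-DMb1 axis runs from 12 to 14.

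Counted over the 8 genes, 3 were called higher with 4-OHT in control cells (Cd74, H2-DMa and Cd80) and 0 lower, against 11.9% of all genes tested called higher and 10.8% lower. In β-catenin cells 2 were called higher (H2-DMb1 and Cd80) and 0 lower, against 8.02% and 6.32% of all genes. At 0 h 1 was higher with β-catenin (H2-DMa) and 1 lower (H2-DMb1), against 4.38% and 6.62%. At 24 h 0 were higher and 2 lower with β-catenin (Cd74 and Cd80), against 8.68% and 9.88%. For the difference between the responses, 0 were higher and 2 lower (Cd74 and Cd80), against 3.74% and 3.43%. Scaling each array to its 75th percentile moved the split of all genes called, in control cells to 2058 higher and 3327 lower, against 2674 and 2422, and at 24 h to 2615 higher and 1753 lower with β-catenin, against 1950 and 2219. With 8 genes, of which 4 were below background on every array, these shares are descriptions. The median log2 change of the 8 genes was 0.16 with 4-OHT in control cells, where that of all genes tested was -0.005, and -0.12 between the vectors at 24 h, where that of all genes was 0.03. The comparisons share arrays: both the control response and the difference between responses rest on the same control arrays.

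**Figure D3:**
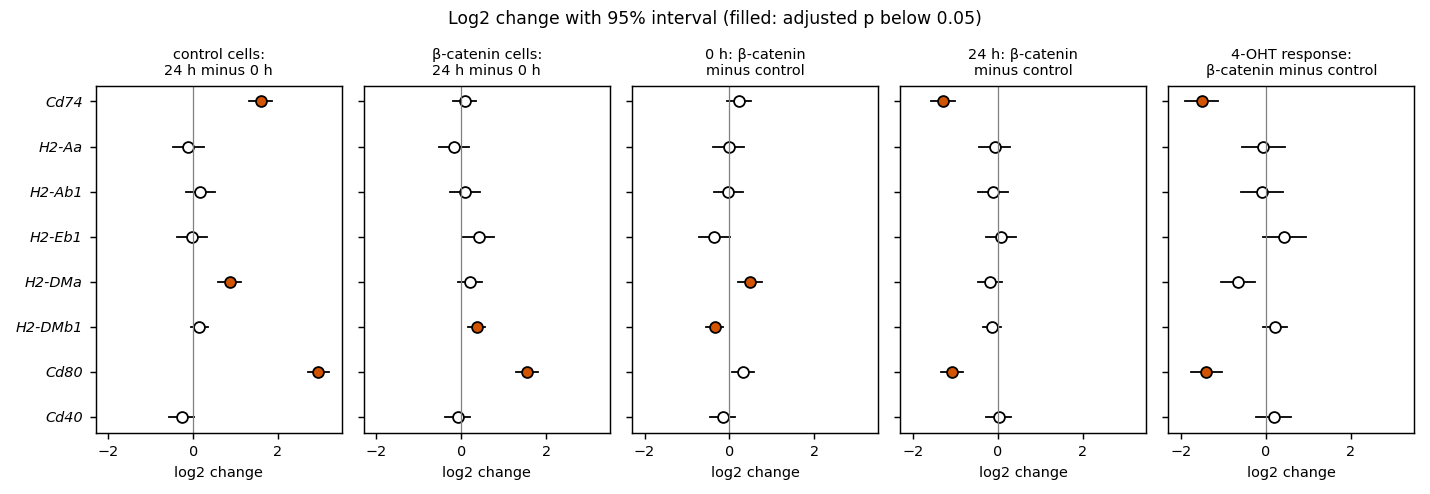
Log2 change (x axis) of each of the 8 genes with its 95% interval in 5 comparisons, 1 panel each; filled points were called at an adjusted p below 0.05 over all genes tested. The difference between the responses is negative and called for Cd74 (-1.51) and Cd80 (-1.40).

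The genes around these in the pathway were taken from 5 lists of 44 genes on class II chains, class II transcription factors, antigen processing, costimulation and CD40 signalling, of which 38 were tested. With 4-OHT in control cells 18 of 38 rose and 1 fell, against 11.9% and 10.8% of all genes tested. In β-catenin cells 15 rose and 0 fell, against 8.02% and 6.32%. Between the vectors at 24 h 1 was higher and 14 were lower with β-catenin, against 8.68% and 9.88%. At 0 h 1 was higher and 8 lower, against 4.38% and 6.62%. With the array letter as a block within the 24 h arrays, where same-lettered arrays deviated together, 0 were higher and 11 lower. With that block 1219 of all 22461 genes were called higher and 1664 lower. The difference between the responses was negative and called for 6 and positive for 0, against 3.43% and 3.74%. The plot of both responses shows each of the 38 genes.

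The largest log2 changes with 4-OHT among the 5 lists were in antigen processing. Of 10 genes tested, 7 rose in control cells and 5 in β-catenin cells, against 11.9% and 8.02% of all genes. At 24 h 5 were lower with β-catenin, against 9.88% of all genes, and 3 with the block, against 1664 of 22461 genes. The responses of 3, Marchf1, Ctss and Lgmn, differed, against 3.43% of all genes called in that direction. Ctss, cathepsin S, which cuts the invariant chain, was at 7.25, 7.78 and 7.61 in β-catenin cells at 24 h, against 9.68, 9.58 and 9.85 in control cells at 24 h, and it was at 6.39 to 6.81 on the 6 arrays at 0 h. It was at least 4.22-fold lower with β-catenin at 24 h (-2.16 ± 0.15, adjusted p = 1.74e-06), and its responses differed by -2.24 ± 0.21 (adjusted p = 7.37e-05). Lgmn, the asparagine-specific endosomal protease legumain, was at 9.98, 10.02 and 10.04 in β-catenin cells at 24 h, against 11.91, 11.69 and 11.65 in control cells at 24 h. It rose 3.82-fold with 4-OHT in β-catenin cells (adjusted p = 1.24e-07) and 10.8-fold in control cells (adjusted p = 2.76e-10), and these responses differed by -1.50 ± 0.14 (adjusted p = 6.61e-05). Ifi30, a thiol reductase that opens disulfide bonds of antigens, rose with both vectors, by 0.50 ± 0.11 in β-catenin cells (adjusted p = 0.00811) and by 0.48 ± 0.11 in control cells (adjusted p = 0.00614), with a difference of 0.02 ± 0.15 (adjusted p = 0.963). Ctsd and Cd63 were at the scan ceiling on all 12 arrays, so a change there could not be seen. Ctsl, counted as risen with both vectors and as lower with β-catenin at 24 h, was at the ceiling on 3 arrays. Its changes can thus not be sized fully.

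Marchf1 encodes a membrane ubiquitin ligase that removes class II and CD86 molecules from the surface of dendritic cells and B cells. The table lists it as 1-Mar, a gene name that a spreadsheet turned into a date. The other mouse symbol that gives this date, Mtarc1, is listed under another name, so the row was read as Marchf1 by inference. It was at 9.40, 9.70 and 9.55 in β-catenin cells at 24 h, against 12.43, 12.39 and 12.32 in control cells at 24 h, and at 6.66 to 7.27 on the 6 arrays at 0 h. It rose at least 4.24-fold with 4-OHT in β-catenin cells (2.67 ± 0.14, adjusted p = 1.25e-07) and at least 29.1-fold in control cells (5.39 ± 0.14, adjusted p = 9.56e-11). The difference was -2.72 ± 0.19 (adjusted p = 1.39e-05), and at 24 h Marchf1 was 7.11-fold lower with β-catenin.

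Ciita, the class II coactivator, listed under the older name C2ta, was below the bound on all 12 arrays, at 6.56 to 7.21 in β-catenin cells and 6.69 to 6.84 in control cells at 24 h. It was called in no comparison (adjusted p = 0.438 to 0.959). Of the 8 transcription factor genes tested, Nfyb and Rfxap rose in control cells, against 11.9% of all genes. Rfxap alone of the list was called in β-catenin cells, against 8.02% of all genes called higher. The Rfxap calls were lost in 10 of 22 alternative settings in β-catenin cells and in 13 of 22 in control cells. Nfyb, the B subunit of the Y box factor NF-Y, was at 13.80, 14.10 and 14.02 in β-catenin cells at 24 h, against 15.03, 14.99 and 15.04 in control cells at 24 h, a 2.06-fold difference. It rose by 1.23 ± 0.09 in control cells (adjusted p = 7.17e-07) and changed by 0.22 ± 0.09 in β-catenin cells (adjusted p = 0.134), and the responses differed by -1.02 ± 0.12 (adjusted p = 0.000517). Rfxank, a subunit of the X box factor RFX, was lower with β-catenin by 0.36 ± 0.08 at 24 h and by 0.51 ± 0.08 at 0 h (adjusted p = 0.0078 and 0.00116), and with the block the 24 h difference was not called (adjusted p = 0.0602). H2-Oa, the α chain of DO, which holds DM back, was lower with β-catenin at 24 h (-0.81 ± 0.12, adjusted p = 0.000812) and at 0 h (-0.95 ± 0.12, adjusted p = 0.000363). It rose with 4-OHT in β-catenin cells by 0.92 ± 0.12 (adjusted p = 0.000359) and in control cells by 0.77 ± 0.12 (adjusted p = 0.000593). H2-Oa was above the bound on 1 of 3 β-catenin arrays at 0 h (mean 7.31). Its 0 h difference and its rise in β-catenin cells may thus be understated. H2-Ob, of the same list of class II chains, lay below the bound on all 12 arrays and was not tested.

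**Figure D4:**
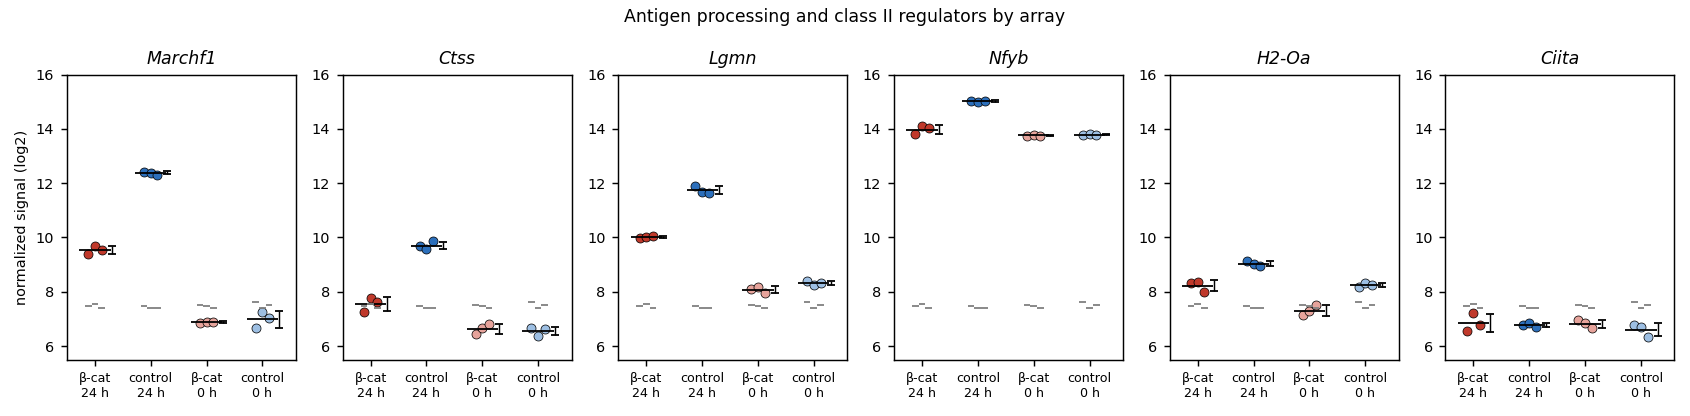
Normalized log2 signal (y axis) of Marchf1, Ctss, Lgmn, Nfyb, H2-Oa and Ciita on 12 arrays in 4 groups (x axis). Points are arrays, black lines group means, bars the SD, and grey ticks the background bound of each array; Marchf1, Ctss, Lgmn and Nfyb are highest in control cells at 24 h, and Ciita lies below the ticks throughout.

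Among 12 other costimulatory and coinhibitory genes 8 were tested. Icosl, Icam1 and Tnfrsf14 rose with 4-OHT in cells of both vectors, against 8.02% of all genes in β-catenin cells and 11.9% in control cells. No difference between the responses was called among the 8 tested. Icosl, the ICOS ligand, was lower with β-catenin by 0.62 ± 0.10 at 24 h (adjusted p = 0.000827). Cd274, the inhibitory ligand PD-L1, was at 10.66, 10.23 and 10.59 in β-catenin cells at 24 h, against 11.86, 11.71 and 12.05 in control cells at 24 h, a 2.60-fold difference (-1.38 ± 0.18, adjusted p = 0.000311). Icosl and Cd274 were also called lower with β-catenin at 0 h, before 4-OHT. Group means at 0 h were 9.57 against 9.94 in control cells for Icosl and 10.95 against 11.65 for Cd274. These 0 h calls were lost in 5 of 22 alternative settings for Icosl and in 6 of 22 for Cd274. Cd86, the partner of Cd80 as a ligand of CD28, did not pass the filter and lay at 6.35 to 6.45 in β-catenin cells and 5.97 to 6.24 in control cells at 24 h. Of the 9 genes of CD40 signalling, 4 rose with 4-OHT in β-catenin cells, against 8.02% of all genes. In control cells 5 rose and Traf6 fell, against 11.9% and 10.8% of all genes. Map3k14, the kinase NIK of the noncanonical NF-κB pathway, rose by 0.75 ± 0.14 in β-catenin cells and by 1.76 ± 0.14 in control cells, and these responses differed (-1.004 ± 0.19, adjusted p = 0.00811). Traf5, an adaptor of CD40, rose by 0.79 ± 0.14 in β-catenin cells and by 1.87 ± 0.14 in control cells, and these also differed (-1.08 ± 0.20, adjusted p = 0.00661). In β-catenin cells Traf5 was above the bound on 0 of 3 arrays at 0 h and 1 of 3 at 24 h. Its rise there thus lay around background and cannot be sized. Relb, a noncanonical NF-κB subunit, was lower with β-catenin at 24 h (-0.86 ± 0.10, adjusted p = 0.000102), and its responses were not called as different (-0.43 ± 0.14, adjusted p = 0.091). It was also called lower with β-catenin at 0 h, at a mean of 9.87 against 10.29 in control cells.

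**Figure D5:**
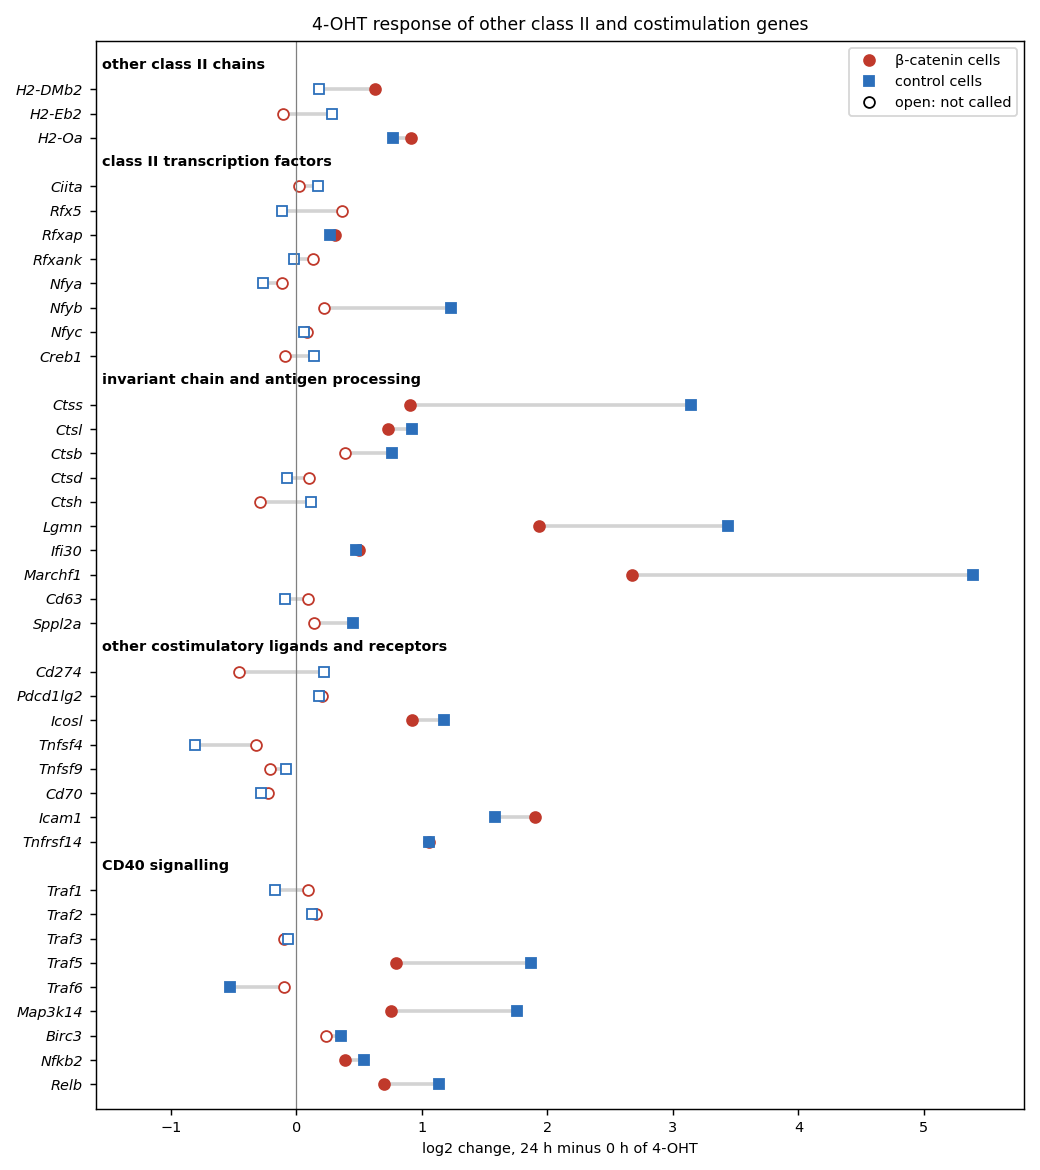
Log2 change from 0 h to 24 h of 4-OHT (x axis) of the 38 tested genes of 5 pathway lists (rows), as red circles for β-catenin cells and blue squares for control cells, filled where called and open where not. The widest gaps between both vectors are those of Marchf1, Ctss and Lgmn.

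The class I pathway was read beside this. Of 13 genes tested, 2 rose with 4-OHT in β-catenin cells (H2-K1 and H2-D1), against 8.02% of all genes. In control cells 2 rose and 2 fell, against 11.9% and 10.8% of all genes, so these 4-OHT counts lie near the shares of all genes. Between the vectors at 24 h 2 were higher and 4 lower with β-catenin, against 8.68% and 9.88% of all genes. With the block 1 was higher and 2 lower, against 1219 and 1664 of 22461 genes. At 0 h 1 was higher and 2 were lower with β-catenin, against 4.38% and 6.62%. H2-K1, a class I heavy chain, was at 15.26, 15.31 and 15.32 in β-catenin cells at 24 h, 15.45, 15.38 and 15.56 in control cells at 24 h, 14.72, 14.74 and 14.82 in β-catenin cells at 0 h, and 16.03, 15.79 and 15.95 in control cells at 0 h. It rose by 0.54 ± 0.09 with 4-OHT in β-catenin cells (adjusted p = 0.00167) and fell by 0.46 ± 0.09 in control cells (adjusted p = 0.00254), a difference of 0.996 ± 0.13 (adjusted p = 0.000677). Its probe reached the scan ceiling on 2 arrays, and class I genes are near copies of each other, so the probe may read others too. The probes of Canx and Calr were at the scan ceiling on 11 and 6 arrays, and that of H2-D1 on 1, which can hide changes.

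Markers of the cell types that could carry class II were read on the same arrays. All 8 macrophage markers were called higher with 4-OHT in cells of both vectors, against 8.02% of all genes in β-catenin cells and 11.9% in control cells. In β-catenin cells Csf1r stayed below the bound on all arrays of both times, and Mertk was above it on 1 of 3 arrays at 24 h. The mean log2 level of the 8 lay at 10.39 to 10.44 in β-catenin cells at 24 h, 11.52 to 11.57 in control cells at 24 h, 8.10 to 8.15 in β-catenin cells at 0 h, and 8.39 to 8.69 in control cells at 0 h. At 24 h 5 of 8 were lower with β-catenin, against 9.88% of all genes, as were Cd74 and Cd80. At 0 h 4 of 8 were lower with β-catenin, against 6.62% of all genes, where neither Cd74 nor Cd80 was called. Cd80 was below the bound on all 0 h arrays, and Cd74 was above it on 2 of 3 in β-catenin cells and 1 of 3 in control cells. A lower level of either at 0 h could thus be missed. In β-catenin cells all 8 markers were called higher with 4-OHT, where Cd74 was not called. The difference between the responses was negative and called for 3 of 8, against 3.43% of all genes, and positive for 0, against 3.74%. It was -1.63 for Adgre1, -1.59 for Mpeg1 and -1.67 for Mertk (adjusted p = 0.000161, 0.00268 and 0.00337), beside -1.51 for Cd74 and -1.40 for Cd80. The rest ranged from -0.57 (Csf1r) to 0.42 (Cd14) and were not called. The part of these markers in the Cd74 and Cd80 results was not tested. Of 6 dendritic cell markers tested, Itgax, Zbtb46 and Batf3 rose in control cells and Batf3 in β-catenin cells, against 11.9% and 8.02% of all genes. The mean level of all 9 dendritic cell markers lay at 6.99 to 7.06 in β-catenin cells at 24 h, 7.42 to 7.60 in control cells at 24 h, 6.81 to 6.98 in β-catenin cells at 0 h, and 6.86 to 7.11 in control cells at 0 h. Without Itgax the mean of the other 8 lay at 6.99 to 7.11 in β-catenin cells at 24 h, 7.09 to 7.27 in control cells at 24 h, 6.86 to 7.03 in β-catenin cells at 0 h, and 6.94 to 7.16 in control cells at 0 h, so the 24 h groups stood farther apart with it. Itgax, the integrin CD11c, was named after its values were seen, as the 1 of 6 tested whose responses were called as different. It was at 6.63, 6.65 and 7.03 in β-catenin cells at 24 h, below the bound, against 9.85, 10.11 and 10.22 in control cells at 24 h. Its responses differed by -3.11 ± 0.28 (adjusted p = 5.98e-05), while the differences of the other 5 ranged from -0.33 (Batf3) to 0.41 (Xcr1) and none was called. Its part in the Cd74 and Cd80 results was not tested. Of 8 B cell markers, 6 lay below the bound on every array of β-catenin cells at 24 h and 7 on every array of each other group, and 0 of 7 tested were called in any comparison. Their mean level lay at 6.61 to 6.95 in β-catenin cells at 24 h, 6.52 to 6.61 in control cells at 24 h, 6.59 to 6.69 in β-catenin cells at 0 h, and 6.59 to 6.67 in control cells at 0 h.

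The genes most like each called member over the 12 arrays were found by the root mean square difference of log2 values. Each gene was first centred on its own mean. The search covered 9599 tested genes that lay above the background bound on 3 or more arrays, with clone and accession names left out. Those most like Cd74 were Fgd2, Tbc1d14 and Snap23, with differences of 0.18, 0.19 and 0.20 against a spread of 0.63 of Cd74 itself. Fgd2 averaged 8.23 ± 0.11 in β-catenin cells at 24 h, 9.46 ± 0.09 in control cells at 24 h, 7.88 ± 0.06 in β-catenin cells at 0 h, and 7.75 ± 0.14 in control cells at 0 h (SD, n = 3 each). Those most like Cd80 were Ank, Tgfbi and Pla1a, with differences of 0.19, 0.22 and 0.24 against a spread of 1.20. Those most like H2-DMa were Azin1, Gtlf3a and Parc, as listed, with differences of 0.11, 0.14 and 0.14 against a spread of 0.35. Those most like H2-DMb1 were Zfp639, Eno3 and Cdk2ap2, with differences of 0.07, 0.07 and 0.08 against a spread of 0.20.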

How the data were processed

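Total RNA of 12 samples was measured on Agilent mouse arrays as Cy3-labelled cRNA, 1 array each. The deposited non-normalized table holds scanned intensity for 43379 spots per array. In the normalized table the authors deposited log2 values of 1 probe for each of 27676 gene names, and the series matrix equals it (largest difference 0). Per the submitters' processing notes limma was used; its version and role, the normalization and how 1 probe per gene was picked the sources used here do not say.

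The normalized log2 values of all 12 arrays were fitted with limma 3.58.1 in R 4.3.3, with 1 mean per group, 8 residual degrees of freedom and two-sided moderated tests of 5 comparisons. Genes that reached the 30th percentile on 3 or more arrays were kept (22461), p-values were adjusted by Benjamini-Hochberg over all of them, and the call was an adjusted p below 0.05. The fit was tested on simulated data. The 8 genes, the gene lists and the tests were chosen with earlier results of these data known. Named genes were the 8 genes, Ciita and Cd86, per list and comparison the 2 largest called rises and falls (not all are described), and the 3 genes most like each called member. Itgax, Adgre1, Mpeg1 and Mertk are named from the marker lists after their values were seen.

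Of 57 pathway genes in the table, out of 58 listed, names were matched exactly, through a synonym, or once through a date name, and 51 were tested. The labels do not say that the letters A, B and C pair samples. Deviations from the group means of same-lettered arrays correlated at 0.15 to 0.19 in the 3 pairs of β-catenin and control arrays at 24 h. The 6 pairs of other letters there correlated at -0.20 to 0.002. The letters were therefore taken as pairs in an added block within the 24 h arrays. The main fit, which gave the calls and adjusted p-values unless the block is named, did not pair them. In the other 5 pairs of groups the only same-letter correlation above 0.1 was 0.195, between control and β-catenin arrays at 0 h. The lowest was -0.17. The block within the 24 h arrays was added after the data were seen. Alternatives were normexp (offset 50) with quantile normalization, scaling to the 75th percentile, 3 other filters, a replicate block, array weights, another variance prior, only the groups compared, array brightness as a covariate, and each array left out in turn.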

Additional observations from a re-analysis of the deposited data

Results flagged for a closer look

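The 4-OHT response differed between β-catenin cells and control cells for 10 of the genes named, macrophage markers left aside. The test was that of the difference over all genes. The differences, in log2 as the β-catenin response minus the control response, were -1.51 for Cd74, -1.40 for Cd80, -1.02 for Nfyb, -2.24 for Ctss, -1.50 for Lgmn, -2.72 for Marchf1, -1.08 for Traf5 and -1.004 for Map3k14. For H2-K1 it was 0.996, with its probe at the scan ceiling on 2 arrays. For Itgax, a dendritic cell marker named after its values were seen, it was -3.11 (adjusted p = 5.98e-05). Adjusted p-values of these 10 ran from 1.39e-05 to 0.00811. The difference was also called for the macrophage markers Adgre1, Mpeg1 and Mertk, named after their values were seen. Both responses of Cd80, Ctss, Marchf1, Traf5, Itgax and Mertk started below background, so the log2 values may understate each response. Cd74 was above the bound at 0 h on 2 of 3 β-catenin arrays and 1 of 3 control arrays, so its values may be understated as well.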

How the results depend on the processing

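Of the 11 member calls, 220 of 242 values under alternative settings kept their call and direction, 22 lost the call, and 0 turned direction; the calls of Cd74 and Cd80 held in every setting run. Members called with 4-OHT in β-catenin cells were 1 after 75th-percentile scaling and with only the groups compared, against 2, and 1 to 2 with an array left out. At 0 h they were 0 after that scaling, 1 with no filter or only the groups compared, against 2, and 0 to 2 with an array left out; all genes called were then 1529 to 2907, against 2469. Array weights gave 5060 genes called in β-catenin cells (3220 without), 4350 at 0 h and 2810 for the difference between responses (1610 without). Only the groups compared gave 2551 at 24 h, against 4169. With the letter as a replicate block, 3 members were still called in control cells and 4965 genes over the table, against 5096, and no count of members changed. With the block within the 24 h arrays, chosen after the data were seen, 2883 genes were called at 24 h, against 4169, and Cd74 (-1.29, adjusted p = 0.00275) and Cd80 (-1.08, adjusted p = 0.00469) stayed called. Of the other named genes, Rfxank, Ifi30, Traf3, Erap1 and Psmb10 lost their 24 h calls (adjusted p = 0.0602 to 0.129), and it changed no other. Among 29 member comparisons not called, 12 of 588 values passed the threshold: H2-DMa in 5 settings for the difference between responses and in 1 in β-catenin cells, Cd80 in 3 at 0 h, and H2-Eb1 in 3. After 75th-percentile scaling H2-Eb1 was lower with 4-OHT in control cells (-0.37, adjusted p = 0.0288), where the median of all genes moved to -0.12; the cause was not tested. H2-Aa, H2-Ab1, H2-Eb1 and Cd40 were below background, so their changes cannot be sized here.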
